A study of Mus musculus with 2 samples.

Results

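The genes Xcl1, Xcr1, Flt3 and Flt3l, 4 in all, chosen by their symbols from the 32285 genes of the feature lists, were followed through single cells of the small intestine. All 4 were found in both libraries. The set was chosen with earlier results of these data in view, so the levels below are descriptions of these libraries. The cells were mononuclear immune cells of the small intestinal lamina propria of female littermate mice aged 10 to 12 weeks. The mice had been fasted for 16 h and given olive oil by gavage 2 h before collection. Live cells negative for EPCAM, Ter119 and CD31 and positive for CD45 were sorted, and each library pooled 100000 cells from each of 3 mice.

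The first library was Aster-A F/F (titled WT), from mice with floxed Aster-A and no Cre (F/F below). The second was CD4-Cre; Aster-A F/F (titled AdCD4), whose mice carry the same floxed alleles with a Cre driven by Cd4 (CD4-Cre below). This driver is known to recombine in the common precursor of CD4 and CD8 alpha-beta T cells, so it is not restricted to CD4 T cells. With 1 pool of mice per genotype there was no replicate, and no p-value was computed. Intervals are exact 95% counting intervals of UMIs or cells. They do not hold the spread between mice, and they are too narrow where the UMIs of a gene gather in few cells. Levels are in CPM, the UMI count of a gene divided by all UMIs of its cell class and scaled in the usual way. Where 2 values are given side by side, F/F comes first, and a ratio is the CD4-Cre level over the F/F level.

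XCL1 is a chemokine released by natural killer cells and activated T cells, and XCR1 is its receptor, carried by cross-presenting conventional dendritic cells (cDC1). FLT3L is the growth factor that drives dendritic cell development from progenitors and their maintenance in tissue, and FLT3 is its receptor tyrosine kinase. The pairs thus join lymphocytes that make a ligand with dendritic cells that carry the receptor.

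After filtering, 12594 F/F and 12526 CD4-Cre cells remained, with median depths of 15319.5 and 14031 UMIs. Lymphoid clusters made up 16.3% of the F/F cells and 26.7% of the CD4-Cre cells, and cDC1-like cells 1.99% and 2.89%. Immunoglobulin-rich cells, from clusters whose median cell had at least 25% of its UMIs from antibody genes, made up 65.4% and 58.9%. The F/F library also held 767 cells in clusters led by pancreatic acinar transcripts, and the CD4-Cre library held 0 in those clusters. Ptprc, which encodes the CD45 of the sort, was detected in 64.4% and 70.3% of kept cells. Jchain, an antibody chain of plasma cells, was detected in at least 99.8% of the cells of every lymphoid cluster, and 47 barcodes were present in both libraries. Gramd1a, which encodes Aster-A, was at 72.0 and 53.8 CPM in CD4 T-like cells of the F/F and the CD4-Cre library, with a ratio of 0.747 (0.581 to 0.960). In CD8 T-like cells the Gramd1a ratio was 0.800 (0.551 to 1.18). It was about as low in unnamed cluster L2, at 0.759 (0.616 to 0.936), and in ILC3-like cells, at 0.697 (0.418 to 1.15), while in immunoglobulin-rich cells it was 0.971. UMIs at the 3′ end of Gramd1a may lie outside the floxed part, in which case they do not check the deletion.

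Xcl1 (ENSMUSG00000026573) lies on the minus strand of chromosome 1 at 164931644 to 164935527 (GRCm38), with 3 exons in 1 annotated transcript. Gm20743 overlaps it on the opposite strand and had 281 and 218 UMIs in kept cells. Xcr1 (ENSMUSG00000060509) lies on the minus strand of chromosome 9 at 123852315 to 123862029, with 2 exons and no overlapping gene. Flt3 (ENSMUSG00000042817) lies on the minus strand of chromosome 5 at 147330741 to 147400489, with 24 exons, and is overlapped on the opposite strand by Gm26597, which had 56 and 40 UMIs. Flt3l (ENSMUSG00000110206) lies on the minus strand of chromosome 7 at 45129788 to 45136432. It has 13 annotated transcripts and shares its strand with the overlapping model Gm45713, for which the matrices have no row. Whether the counting used strand is not given in the sources used here, so reads of overlapping genes may not be told apart.

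The promoters of the ligands are shown because the ligand genes differ in how their UMIs spread over cells. Each sequence holds the 250 bases before the annotated start (RefSeq, GRCm38.p6, minus strand), for Xcl1 at chr1:164935523-164935772 and for Flt3l at chr7:45136433-45136682. Capitals mark the matches to motifs searched on both strands.
Xcl1: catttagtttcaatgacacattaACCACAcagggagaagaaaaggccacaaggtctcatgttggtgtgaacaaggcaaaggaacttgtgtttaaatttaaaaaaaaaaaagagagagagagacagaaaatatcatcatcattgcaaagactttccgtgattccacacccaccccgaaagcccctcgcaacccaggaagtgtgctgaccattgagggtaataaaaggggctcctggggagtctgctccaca
Flt3l: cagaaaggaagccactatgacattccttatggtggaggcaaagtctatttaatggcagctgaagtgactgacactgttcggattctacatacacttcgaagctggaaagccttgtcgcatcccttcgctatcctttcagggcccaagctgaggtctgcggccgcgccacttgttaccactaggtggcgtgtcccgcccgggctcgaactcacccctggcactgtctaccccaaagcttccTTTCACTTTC
The match upstream of Xcl1 is the Runx core TGTGGT, read here on its other strand, which 14.1% of the 32851 promoters searched also hold. The match upstream of Flt3l is the interferon-type element, a pair of GAAA runs with any 2 bases between them, read on its other strand at the end of the window, which 2.98% of promoters hold. The AP-1 element TGANTCA (6.75% of promoters) and the PU.1 core GAGGAA (23.3% of promoters) had no match upstream of either ligand, and the windows of Xcr1 and Flt3 had no match to any of the 4 motifs. A match is a string of letters and not a measured binding site.

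The ligand Xcl1 was a transcript of lymphocytes in both libraries. Of its 3114 F/F and 3006 CD4-Cre UMIs, 87.6% and 89.4% lay in lymphoid clusters. Most of the others lay in mixed clusters and, in F/F, in acinar-led clusters (108 UMIs). The whole mixed class held 238 and 264 UMIs. Part of these lay in mixed cluster L10, which was also counted among the lymphoid clusters. The highest levels were in unnamed cluster L2 (263 and 403 cells), with 837 and 697 CPM. This cluster was led by Cd7, Klra7, Ikzf2, Klrd1 and Cd160. Cd3e, a chain of the T cell receptor complex, was present in 82.7% of its cells, and Trdc, the gamma-delta receptor constant chain, in 43.7%. NK or ILC1-like cells (92 and 95 cells) came next, with 815 and 601 CPM, and their intervals overlapped those of cluster L2 in each library. Xcl1 was detected in 72.6% and 73.7% of cluster L2 cells and in 73.9% and 66.3% of NK or ILC1-like cells.

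**Figure D1:**
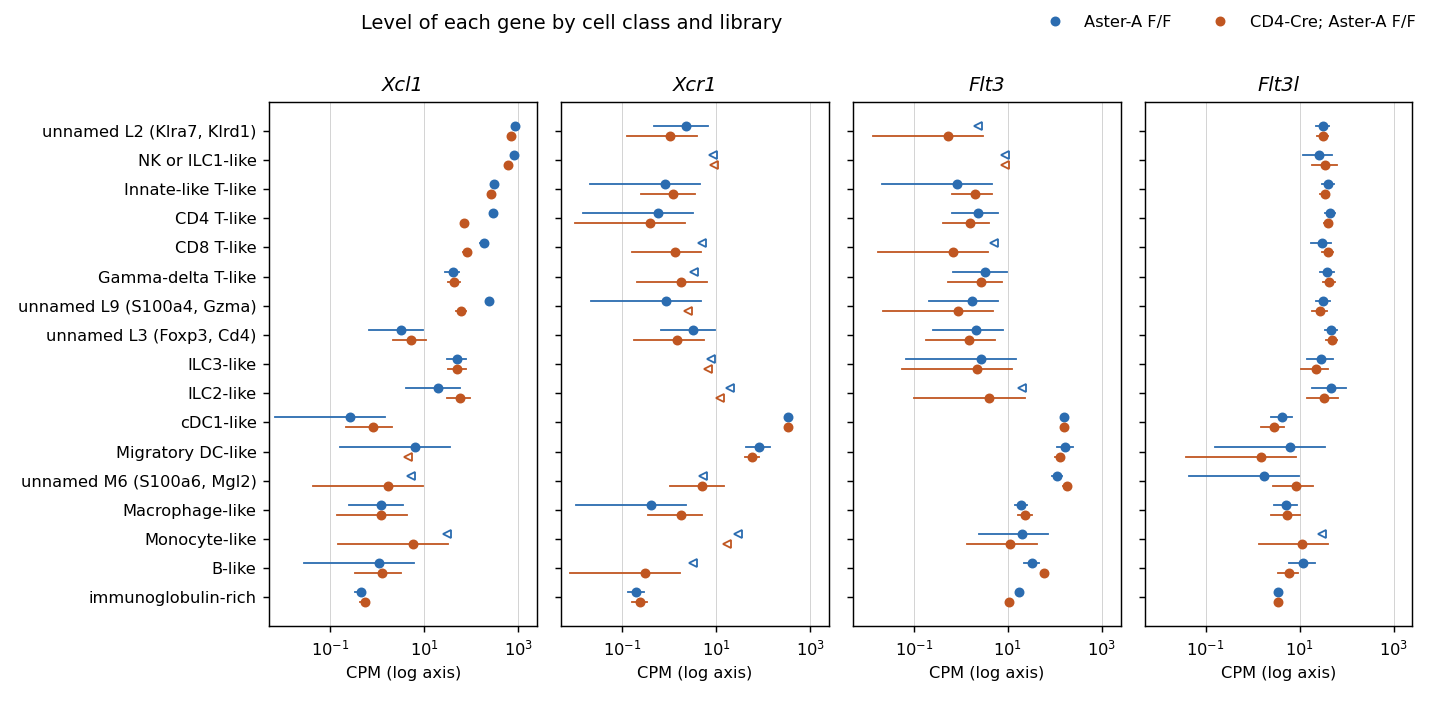
Level of each gene in CPM (log axis) by cell class, blue for Aster-A F/F and orange for CD4-Cre; Aster-A F/F, with exact 95% counting intervals; open triangles are the upper limits that a count of 0 allows (3 UMIs). Xcl1 is highest in lymphoid classes, up to 837 CPM in cluster L2, Xcr1 is highest in cDC1-like cells at 342 and 343 CPM, Flt3 spans the dendritic classes and Flt3l is spread over the lymphoid classes.

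Innate-like T-like cells, marked by Zbtb16, the transcription factor of innate-like T cells, held 309 and 266 CPM of Xcl1. Gamma-delta T-like cells held 39.8 and 43.6 CPM, and ILC3-like cells, innate lymphocytes of the interleukin-17 type, held 50.1 and 50.5 CPM, with overlapping intervals. Cluster L3, in which Foxp3 of regulatory T cells was detected in 51.6% of cells and Cd4 in 71.0%, held 3 and 7 Xcl1 UMIs in all. The CD4 T-like class consisted of cluster L1, with 495 and 180 UMIs, and cluster L6, with 0 and 2 UMIs. The count of 0 in F/F cluster L6 allows up to 5.34 CPM. The receiver side held almost none: cDC1-like cells had 1 and 4 Xcl1 UMIs and macrophage-like cells 3 and 2. Immunoglobulin-rich cells, which should lack the gene, had 0.440 and 0.537 CPM and a UMI in 0.667% and 0.705% of cells, with a median of 17489 and 17451 UMIs per cell, where lymphoid cells had 3830 and 3559.

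Other transcripts differed in frequency between the Xcl1-positive lymphoid cells and the negative ones, some higher and some lower. The cells were clustered on some of the same genes, so these shares are descriptions. Lymphoid cells were divided by their Xcl1 UMIs into those with 0 (1475 F/F and 2459 CD4-Cre cells), 1 to 9 (531 and 847 cells) and 10 or more (47 and 38 cells). Median depth rose along the same order, at 3720, 4033 and 5641 UMIs in F/F and at 3443, 3766 and 5772.5 UMIs in CD4-Cre. The part of depth in the shares was not tested. Cd160, a receptor of natural killer and intraepithelial lymphocytes, was present in 33.6%, 65.5% and 87.2% of the 3 F/F groups and in 35.6%, 66.6% and 89.5% of the CD4-Cre groups. Klrd1, which encodes the CD94 receptor, went from 21.0% to 50.1% and 61.7% in F/F, and from 21.7% to 49.1% and 68.4% in CD4-Cre. Fcer1g, an adaptor of activating receptors, went from 18.4% to 47.7% and 66.0% in F/F, and from 16.8% to 41.6% and 65.8% in CD4-Cre. These 3 were more frequent in each richer group in both libraries. Klra7 and Ncr1, other receptors of natural killer cells, rose in the same order. Klra7 was in 1.90%, 16.2% and 19.15% of the F/F groups and in 1.91%, 18.5% and 28.95% of the CD4-Cre groups. Ncr1 was in 3.25%, 14.5% and 19.15% of the F/F groups and in 2.68%, 12.3% and 13.2% of the CD4-Cre groups. Klrk1 followed this order in neither library and Klrb1c only in F/F. Klrk1, which encodes NKG2D, was in 10.8%, 34.8% and 27.7% of the F/F groups and in 13.2%, 35.1% and 18.4% of the CD4-Cre groups. Klrb1c, which encodes NK1.1, was in 8.95%, 39.4% and 40.4% of the F/F groups and in 9.72%, 36.6% and 21.1% of the CD4-Cre groups.

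Foxp3 went the other way, with 14.2% of F/F cells lacking Xcl1, 0.565% of those with 1 to 9 UMIs and 0% of those with 10 or more. The CD4-Cre shares of Foxp3 were 11.4%, 0.708% and 5.26%. Cd4 was present in 33.0%, 9.98% and 14.9% of the F/F groups and in 49.7%, 26.5% and 26.3% of the CD4-Cre groups. Ccl5, a chemokine stored by cytotoxic lymphocytes, was in 61.6%, 90.0% and 87.2% of the F/F groups and in 66.9%, 89.5% and 89.5% of the CD4-Cre groups. The granzyme genes Gzma, Gzmb and Gzmk were instead most frequent in the cells without Xcl1 in both libraries. Gzmb was in 40.3%, 24.1% and 10.6% of the F/F groups and in 36.7%, 24.4% and 31.6% of the CD4-Cre groups. Gzma was in 38.6%, 27.5% and 31.9% of the F/F groups and in 38.0%, 23.7% and 26.3% of the CD4-Cre groups. Zbtb16 was most frequent in the middle group, at 30.5% in F/F and 35.7% in CD4-Cre, against 8.51% and 21.1% in the cells with 10 or more Xcl1 UMIs. Cd8a was instead most frequent in the richest cells, at 38.3% and 42.1%. Flt3l, the other ligand, was in 14.9%, 13% and 19.2% of the F/F groups and in 13.2%, 13.5% and 18.4% of the CD4-Cre groups.

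**Figure D2:**
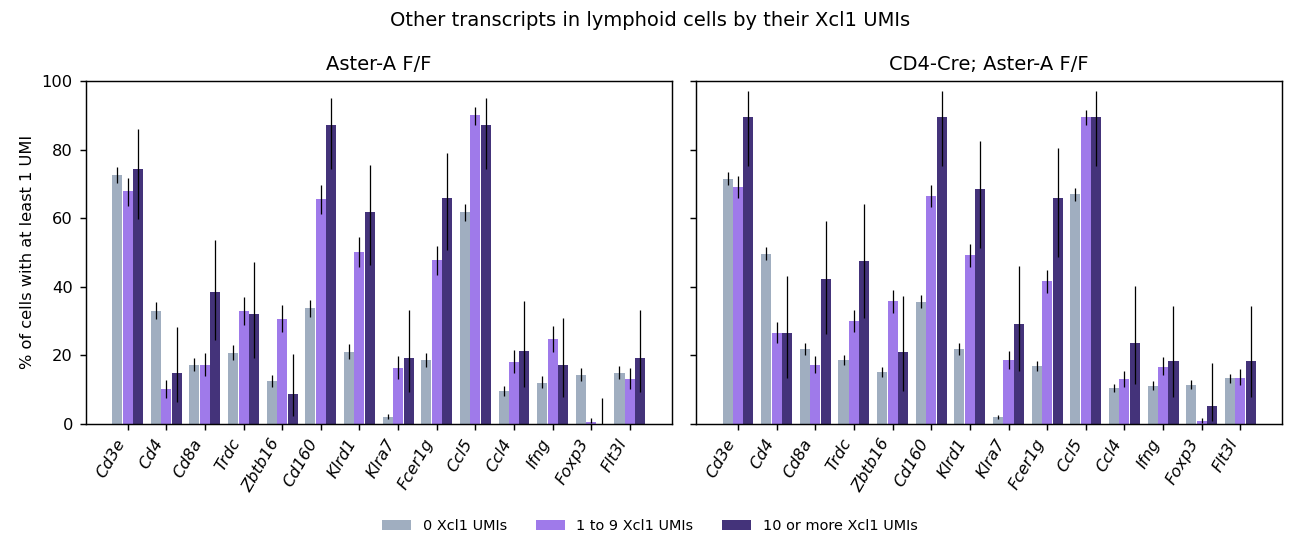
Share of lymphoid cells with at least 1 UMI of each named transcript (bars from 0, exact 95% binomial intervals), by the number of Xcl1 UMIs in the cell, for each library. Cd160 rises from 33.6% to 87.2% in F/F and from 35.6% to 89.5% in CD4-Cre, while Foxp3 is highest in the cells without Xcl1.

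Xcl1 UMIs gathered in few cells. A UMI was found in 758 F/F and 1057 CD4-Cre cells. In F/F, 65 cells held 50% of the UMIs, and in CD4-Cre 136 cells did. The 5 highest cells held 19.4% of the F/F UMIs and 11.6% of the CD4-Cre UMIs. Cells with a single UMI were the most numerous, at 318 and 547, but held 10.2% and 18.2% of the UMIs. At the other end, 6 F/F cells with 50 or more UMIs held 21.8% of the library's Xcl1, and 5 CD4-Cre cells held 11.6%.

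The richest cell of all was an F/F cell of cluster L1 with 231 Xcl1 UMIs among its 7413 UMIs, or 3.12% of its RNA counts. The same cell had 32 UMIs of Ccl4 and 7 of Ccl3, chemokines that activated lymphocytes release, and 1 of Ccl5. The next F/F cells had 107 UMIs (cluster L9, led by S100a4 and Gzma, with Mki67 of dividing cells in 74.4% of cells), 100 UMIs (L2) and 86 UMIs (L9, with 19 Ifng UMIs). The richest CD4-Cre cells had 93 and 79 UMIs (both L2), 60 UMIs (L9) and 59 UMIs (1 cell of L0, the innate-like T-like cluster, and 1 of L2). Of the 20 richest cells, 9 in F/F and 12 in CD4-Cre belonged to cluster L2, and 6 in F/F against 1 in CD4-Cre to cluster L1.

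**Figure D3:**
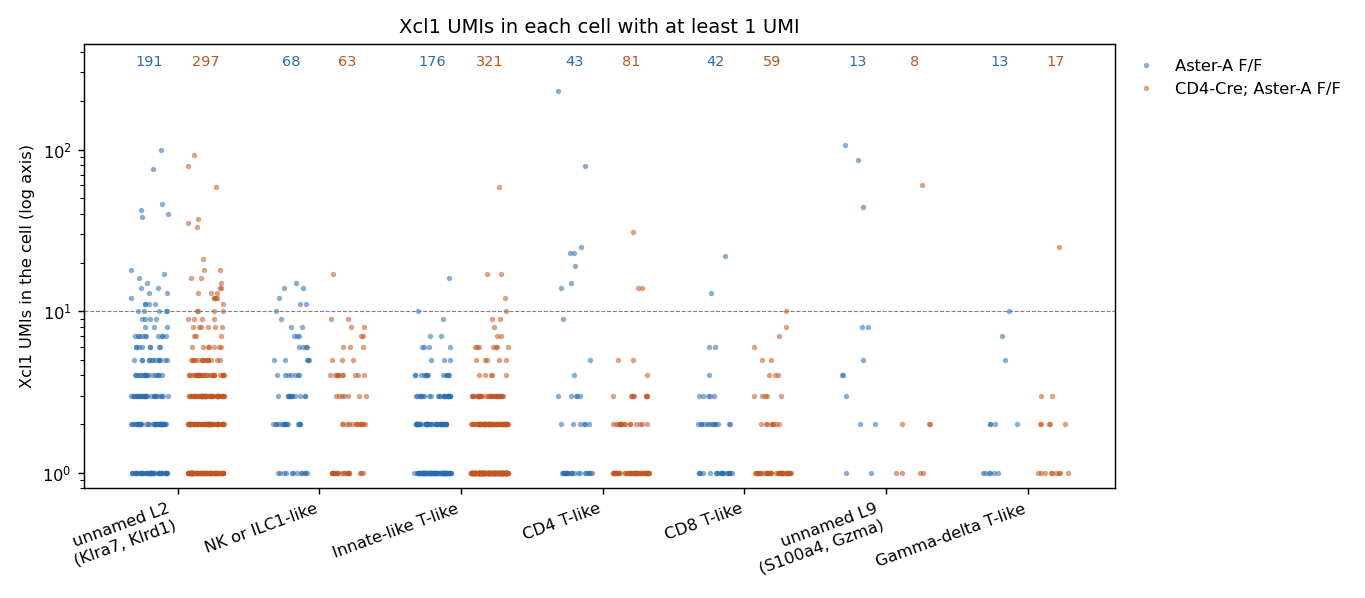
Xcl1 UMIs (log axis) in each lymphoid cell with at least 1 UMI, by class and library, with the number of such cells printed above each column and a dashed line at 10 UMIs. CD4 T-like cells hold mostly 1 to 3 UMIs, with 1 F/F cell at 231, while cluster L2 has a continuous tail up to 100 in F/F and 93 in CD4-Cre.

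CD4 T-like cells showed this gathering clearly. There 5 cells held 77.0% of the F/F Xcl1 UMIs, and none of the others among 2630 genes with at least 100 UMIs in that class and library reached this share. In CD4-Cre the 5 highest cells held 37.9%, and 1 other gene, 0.0266% of those compared, was as high. The median gene of the class had 8.97% and 7.62% in its 5 highest cells. Il17a, a cytokine of type 17 T cells, had 28.9% and 35.5%, and Cd3e, which T cells express broadly, had 4.82% and 3.15%. In cluster L2 the 5 highest cells held 28.1% and 23.0% of Xcl1, and 46.6% and 40.0% of Ccl4. Among the other genes of this cluster, 0.862% and 0.940% reached the share of Xcl1, and 0.203% and 0.174% that of Ccl4. In NK or ILC1-like cells the 5 highest cells held 22.9% and 24.9% of Xcl1, a share reached by 27.9% and 14.1% of other genes. The cells with a UMI can also be set beside the number expected if the UMIs of a class were spread over its cells by depth alone. In CD4 T-like cells the positive cells were 43 where 300.2 were expected in F/F (14.3%). In CD4-Cre the positive cells of this class were 81 where 159.0 were expected (50.9%). In cluster L2 the positive cells were 75.3% and 78.3% of those expected, and in NK or ILC1-like cells 79.6% and 77.9%. As low were 4.87% and 7.03% of other genes in cluster L2, and 7.30% and 8.53% in NK or ILC1-like cells.

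**Figure D4:**
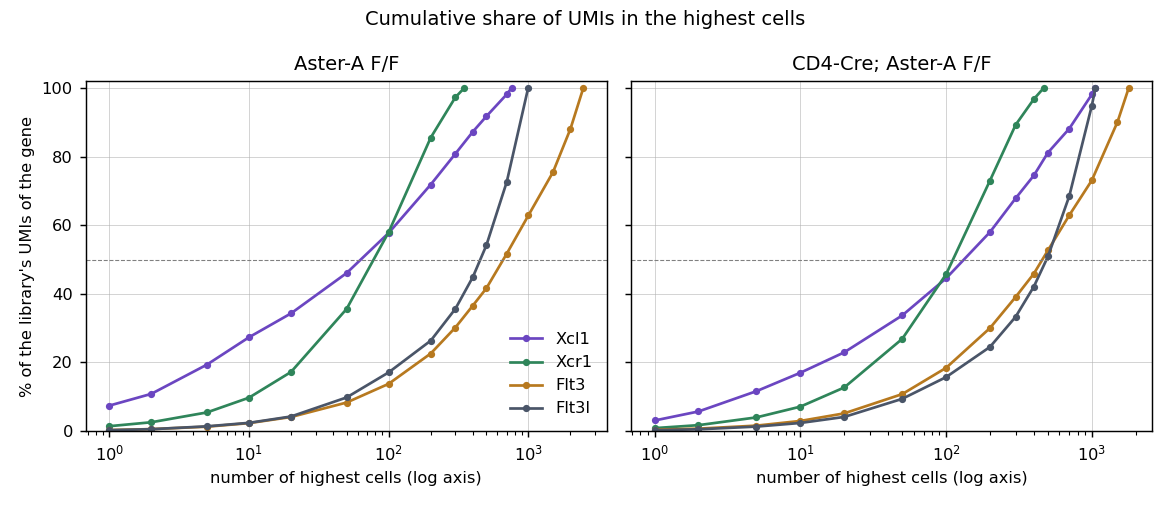
Cumulative share of each gene's UMIs (y axis, percent) held by its highest cells (x axis, number of cells, log axis), 1 panel per library, with a dashed line at 50%. Xcl1 reaches 50% within 65 cells in F/F and 136 in CD4-Cre, while Flt3l needs 456 and 490 cells.

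Between the genotypes, Xcl1 had its lowest ratios in cluster L9 and in the CD4 and CD8 T-like classes. Over all lymphoid clusters the levels were 291 and 195 CPM, for a ratio of 0.669 (0.634 to 0.706), while the share of lymphoid cells with a UMI was 28.1% and 26.5%. The mix of classes differed: of 2053 F/F and 3344 CD4-Cre lymphoid cells, 92 and 95 were NK or ILC1-like and 151 and 374 CD8 T-like. The part of this mix in the pooled ratio was not tested. Over all kept cells the Xcl1 ratio was 1.078 (1.025 to 1.134). In CD4 T-like cells 292 and 70.4 CPM gave a ratio of 0.241 (0.202 to 0.286). This difference rested on few cells: the ratio was 0.374 without the highest cell of each library and 0.644 (0.492 to 0.843) without the 5 highest. The share of CD4 T-like cells with a UMI was 8.92% in F/F (43 of 482) and 10.7% in CD4-Cre (81 of 756), and 5.96% and 6.15% after thinning each cell to 1500 UMIs. Thinned shares are averages over all possible draws. In this class 3.47% of genes differed by at least 1.5-fold in either direction. When cells with at least 2000 UMIs were clustered and named anew, the ratio in the new CD4 T-like class was 0.947. The richest F/F cell, with 7413 UMIs, passes that threshold. Finer clustering (resolution 2), also with new classes, gave 0.795.

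In CD8 T-like cells Xcl1 had 111 and 121 UMIs, or 183 and 80.6 CPM, for a ratio of 0.441 (0.338 to 0.576), where 10.1% of genes differed by at least 1.5-fold. Without the 5 highest cells the ratio was 0.559 (0.397 to 0.792). The share of CD8 T-like cells with a UMI was also lower, at 27.8% and 15.8%, and at 16.2% and 8.65% after thinning to 1500 UMIs. In cluster L9 the level was 236 and 59.5 CPM (ratio 0.252, 0.191 to 0.329, in a cluster where 5.05% of genes differed by 1.5-fold), but 13 and 8 cells carried all of it and 5 of them held 92.0% and 95.7%. Without the highest cell of each library the L9 ratio was 0.061.

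In the populations with the highest Xcl1 levels the ratio was nearer to 1. It was 0.833 (0.768 to 0.904) in cluster L2, 0.737 (0.613 to 0.885) in NK or ILC1-like cells and 0.859 (0.757 to 0.977) in innate-like T-like cells, none past 1.5-fold, where 4.38%, 4.79% and 3.58% of genes were. In gamma-delta T-like cells it was 1.09, on 36 and 50 UMIs. Innate-like T-like cells had a UMI in 51.3% and 43.7% of cells, and in 31.4% and 25.3% after thinning to 1500 UMIs. Whether these ratios differ from those of CD4 and CD8 T-like cells was not tested, since each genotype is 1 pool.

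**Figure D5:**
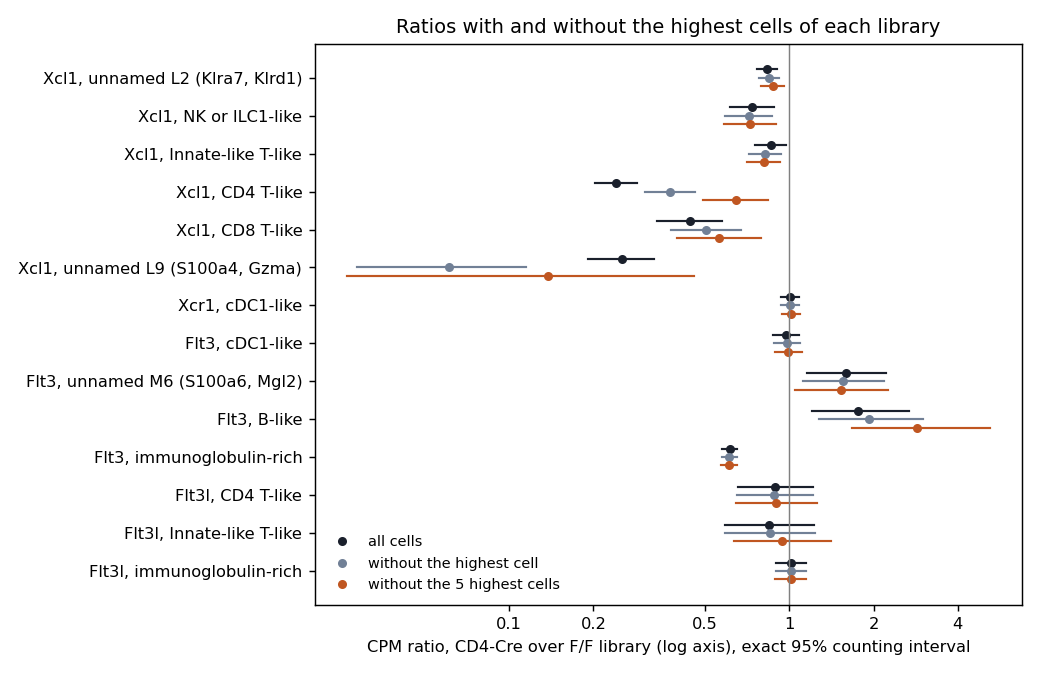
Ratio of the CD4-Cre to the F/F level in CPM (log axis) with exact 95% counting intervals, for all cells of a class, without the highest cell of each library and without the 5 highest. Xcl1 in CD4 T-like cells moves from 0.241 to 0.644 when 5 cells are left out, while Xcr1 and Flt3 in cDC1-like cells stay near 1.

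Other chemokines and cytokines of activated lymphocytes, from a list of 11 genes, moved in different directions by class. In CD4 T-like cells, where 3.47% of all genes passed 1.5-fold, 5 were measured. Of these Ccl4 was lower by at least 1.5-fold (57.8 and 27.5 CPM, ratio 0.475, 0.345 to 0.651), while none was higher. Ccl5 had a ratio of 0.897 and Ifng, the macrophage-activating cytokine, 1.001. The median of the 5 was −0.16 on the log2 scale, against 0.05 for all genes of the class. In innate-like T-like cells, where 3.58% of all genes passed, 1 of 4 measured was lower, again Ccl4 (50.3 and 19.96 CPM, 0.397), and Ifng had 146 and 108 CPM (0.741, 0.612 to 0.900). In cluster L2 0 of 2 passed 1.5-fold, where 4.38% of all genes did, with Ccl5 at 0.842 and Ccl4 at 0.811. In CD8 T-like cells 0 of 3 passed, where 10.1% of all genes did. In gamma-delta T-like cells 1 of 2 was higher (4.5% of all genes passed 1.5-fold), and in ILC3-like cells 2 of 2 were lower (5.35% of all genes passed). Of 14 chemokine receptors and G protein genes, 11 were measured in CD4 T-like cells and 1 passed 1.5-fold. It was Cxcr6, a homing receptor of tissue T cells, at 276 and 184 CPM (0.665), with Ccr2 just short of that fold at 0.669.

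The receptor Xcr1 was a cDC1 transcript, with 74.9% of 1747 F/F UMIs and 82.8% of 2077 CD4-Cre UMIs in cDC1-like cells. The next largest shares were in mixed cluster M5, with 229 and 221 UMIs, and in the acinar-led cluster M13 of F/F, with 91 UMIs. The 250 F/F and 362 CD4-Cre cDC1-like cells were named from a set of markers that included Clec9a, a dead-cell receptor of cDC1, which was detected in 93.6% and 96.1% of them. The members were left out of the clustering. Xcr1 was detected in 90.4% and 89.8% of cDC1-like cells. Its level was 342 and 343 CPM, a ratio of 1.003 (0.933 to 1.08), and 2.63% of genes in these cells differed by at least 1.5-fold. No difference was detectable at this depth, and the counting interval holds no ratio above 1.08. After thinning to 1500 UMIs, 37.5% and 38.5% of cDC1-like cells had an Xcr1 UMI.

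Within the cDC1-like class, Xcr1 was at 375 and 398 CPM in cluster M1, at 326 and 289 CPM in M4 and at 197 and 235 CPM in M9, where Mki67 was detected in 77.0% of cells. Cluster M9 was therefore lowest in both libraries. The 12 F/F and 43 CD4-Cre migratory DC-like cells, which carry the genes of dendritic cells leaving for the lymph node, held 80.5 and 58.7 CPM. Cluster M6, which was led by S100a6, Tyrobp and S100a4, had Mgl2 of other dendritic cells among its leading genes and stayed unnamed, held 0 of 64 F/F cells with a UMI, which allows up to 4.69% of cells with a UMI but does not limit the share of cells that express the gene, and 3 UMIs in CD4-Cre. Lymphoid clusters had 9 and 12 Xcr1 UMIs in all, and immunoglobulin-rich cells a UMI in 0.376% and 0.420% of cells. Xcr1 was spread over many of its cells. The 5 highest cDC1-like cells held 7.26% and 4.83% of it, shares that 86.1% and 93.1% of other genes reached, and the highest cells had 25 and 18 UMIs.

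The receptor Flt3 was found in cDC1-like and migratory DC-like cells, as Xcr1 was. It was also found in unnamed cluster M6, where Xcr1 had 0 and 3 UMIs. In cDC1-like cells it had 158 and 154 CPM, with a ratio of 0.976 (0.876 to 1.09), and was detected in 83.2% and 80.4% of them. Migratory DC-like cells held 167 and 126 CPM, with intervals that overlapped those of cDC1-like cells. Cluster M6 held 112 and 178 CPM (ratio 1.59, 1.16 to 2.21) on 64 and 106 UMIs, where 8.23% of genes differed by at least 1.5-fold. Macrophage-like cells held 18.9 and 23.3 CPM, from 3.75 and 6.82 CPM in cluster M0 to 31.1 and 33.1 CPM in M2. Both receptors were found in the same cell in 194 of 250 F/F cDC1-like cells (77.6%) and 270 of 362 CD4-Cre cells (74.6%). Flt3 was detected in 85.8% and 83.1% of the Xcr1-positive cDC1-like cells and in 58.3% and 56.8% of the Xcr1-negative ones. The Xcr1-negative cells numbered 24 and 37.

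Outside the dendritic cells, most Flt3 UMIs lay in immunoglobulin-rich cells, which made up most of the libraries. They held 65.9% of the 3963 F/F UMIs and 48.6% of the 2941 CD4-Cre UMIs. At 16.9 and 10.4 CPM, they had a ratio of 0.612 (0.574 to 0.653), with 4.4% of genes in these cells differing by at least 1.5-fold. Flt3 was detected in 21.9% and 15.1% of these cells, and in 2.76% and 1.68% after thinning to 1500 UMIs. Lymphoid clusters, which should lack the gene, had 21 and 25 UMIs, or 2.24 and 1.81 CPM, at the lower depths given above. Among immunoglobulin-rich clusters the ratio was between 0.560 in A0 and 0.890 (0.698 to 1.13) in A8. In barcodes of 150 to 350 UMIs, below the threshold for cells, Flt3 levels were 15.2 and 14.4 CPM (ratio 0.948, 0.779 to 1.15), and immunoglobulin transcripts were 43.2% and 45.3% of UMIs there against 51.9% and 54.9% in immunoglobulin-rich cells. The part of RNA outside cells in the level of Flt3 in these cells was not tested.

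In the 77 F/F and 167 CD4-Cre B-like cells Flt3 had 33.0 and 58.1 CPM, and its ratio was 1.76 (1.2 to 2.67) on 31 and 188 UMIs. Of all genes in B-like cells 32.7% differed by at least 1.5-fold, so that this ratio does not stand apart from that background. Median depth was 8386 and 14377 UMIs and the immunoglobulin share 20.7% and 13.6% in the B-like cells. The part of either in the ratio was not tested.

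The ligand Flt3l was low and widespread. It had 1081 and 1138 UMIs, of which 84.8% and 86.7% were in cells with 1 UMI, and no cell had more than 3. A UMI was found in 996 and 1059 cells. Lymphoid clusters held 35.9 and 35.4 CPM, a ratio of 0.984 (0.855 to 1.13), and immunoglobulin-rich cells 3.46 and 3.52 CPM (1.01, 0.896 to 1.15). Because they were so numerous, the latter still held 49.5% and 42.6% of its UMIs. The highest lymphoid levels were 47.0 and 47.9 CPM in cluster L3, with CD4 T-like cells at 44.9 and 39.8 CPM and gamma-delta T-like cells at 38.7 and 42.7 CPM, whose intervals overlapped. Cluster L2, the richest in Xcl1, held 30.9 and 30.7 CPM of Flt3l, and NK or ILC1-like cells 25.5 and 35.2 CPM. In CD4 T-like cells, where Xcl1 had its low ratio, the Flt3l ratio was 0.888 (0.654 to 1.21), and in CD8 T-like cells 1.35 (0.785 to 2.43). Its level in cDC1-like cells was 4.19 and 2.80 CPM.

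Counted together, 578 F/F and 885 CD4-Cre lymphoid cells had an Xcl1 UMI, beside 250 and 362 cDC1-like cells. This came to 2.31 and 2.45 Xcl1-positive lymphoid cells for each cDC1-like cell. These are numbers of sorted and sequenced cells, which need not be those of the tissue.

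The XCR1 dendritic cell program, a list of 18 genes known in cDC1, was measured whole in cDC1-like cells. The list includes every marker used to name these cells, so this was in part set by the naming. Of the 18 genes, 0 differed by at least 1.5-fold between the libraries, where 2.63% of all genes did. A count of 0 in 18 genes is near that background. The median log2 ratio was 0.04, against 0.03 over all genes. Irf8, the factor that specifies cDC1, had 1396 and 1326 CPM (ratio 0.950) and Batf3, its partner, 190 and 188 CPM (0.988). Clec9a had 419 and 498 CPM (1.19, 1.12 to 1.27), and Itgae, the CD103 integrin chain, 424 and 484 CPM (1.14, 1.07 to 1.22). The lowest ratio quoted here was that of Ifi205 (0.844, 0.753 to 0.946).

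Of 22 genes that act in FLT3 signalling, 20 were measured in cDC1-like cells. Of these 0 passed 1.5-fold, where 2.63% of all genes did, so the count is near that background. The median log2 ratio was 0.08, against 0.03 over all genes. Ptpn11, the phosphatase SHP2, had 32.2 and 45.9 CPM (1.43, 1.14 to 1.79). Spi1, which encodes PU.1, had 375 and 402 CPM (1.07). Of 8 other growth factors and receptors of dendritic cells, 3 were measured and 0 passed, beside the same 2.63% of all genes. Among them Kit, the receptor closest in kind to FLT3, had 50.5 and 61.9 CPM (1.23, 1.02 to 1.48).

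Of the chemokine and cytokine list, 5 genes were measured in cDC1-like cells. By at least 1.5-fold, 2 were higher and 2 lower, where 2.63% of all genes differed in either direction. Cxcl9, an interferon-induced chemokine that attracts T cells, was at 337 and 129 CPM (0.385, 0.349 to 0.423), and was detected in 32.0% and 26% of the cells. Tnf was at 23.0 and 14.98 CPM (0.651, 0.472 to 0.895). Ccl5 was instead higher, at 11.2 and 32.9 CPM (2.93, 2.08 to 4.2), but 5 cells held 49.7% of its 165 CD4-Cre UMIs. Higher too was Cxcl10 at 11.2 and 19.0 CPM (1.69, 1.16 to 2.48). The Cxcl10 UMIs lay in 4.0% and 1.66% of the cells.

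Across 32 class sums, 1 per class and library, the genes whose levels were most like those of each member were ranked by Pearson's r of log2(CPM + 1) over 6062 genes. The sums share libraries and depth, and several of the genes helped to form the clusters, so the r values are descriptions. Xcl1 was most like Ifng (0.929), Cd160 (0.928) and Nmnat2 (0.926). Xcr1 was most like Snx22 (0.932) and Cyp26b1, a retinoic acid degrading enzyme (0.930). Flt3 was most like Wdfy4, which cDC1 need for cross-presentation (0.962), Cbfa2t3 (0.940) and Cd74, the invariant chain of antigen presentation (0.937). Flt3l, over 6063 genes, was most like Gm20139 (0.964) and Rasal3 (0.963), a regulator of Ras in lymphocytes.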

How the data were processed

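Single-cell RNA was counted in 1 library per genotype, each a pool of 3 mice. The deposited values are raw UMI counts per gene and barcode, made with Cell Ranger 7.2.0 on mm10 per the submitters' processing notes, which also name Seurat 5.0.1. The matrices are unfiltered (2307624 and 2270301 barcodes, 222838658 and 200580083 UMIs). The authors' cell calls were not used here.

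A barcode was kept as a cell if it had 1000 UMIs or more from 500 genes or more, with mitochondrial UMIs not above 10%. Cells were clustered with scanpy 1.11.5 and leidenalg 0.10.2 in Python 3.11.15 (Leiden resolution 1, 2000 variable genes, 30 components, 15 neighbours), without the 4 members, antibody and T cell receptor genes, and genes of mitochondria and ribosomes. Clusters were then divided again in the same way. They were named by marker lists, with thresholds set after seeing the data. Clusters that did not meet all naming rules of any list stayed unnamed (L2, L3, L9, M6). Such clusters could still hold markers of several lists. Among its 10 leading genes, L2 had 2 gamma-delta T and 2 NK and ILC1 markers. L9 had 2 CD4 T and 2 CD8 T markers there, M6 had 2 monocyte and 1 cDC2 marker, and L3 had 0 CD4 T markers. No doublet caller was run. Clusters with markers of several types were kept as a mixed class and doublets were not removed. All names are rebuilt here and may differ from the study's.

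Counts were summed per class and library and divided by the class's total (CPM). Intervals of levels are exact Poisson, of shares exact Clopper-Pearson, and of ratios exact binomial, all at 95% (scipy 1.17.1). They cover counting error only. The limit for a count of 0 is 3 UMIs or cells. A gene was measured in a class with at least 100 UMIs over both libraries. The ratios and their intervals were tested on simulated pooled counts of cDC1-like cells. That simulation held counting error only, without UMIs gathered in few cells. Clustering, naming, thinning and the measures of gathering were not tested in this way. Named genes were the 4 members, all list genes counted, and the genes with the highest r to each member, from which the text takes up to 3, among genes of at least 50 CPM in some class. The members and lists were chosen with earlier results of these data known. Alternatives are described in the closing section.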

Additional observations from a re-analysis of the deposited data

Results flagged for a closer look

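In barcodes of 150 to 350 UMIs, which the comparisons of cells do not use, Xcr1 had 48 UMIs in the F/F library (3.27 CPM) and 100 UMIs in the CD4-Cre library (7.24 CPM), a ratio of 2.21 (1.55 to 3.19). It is given here because these barcodes lie outside the main measurement and the interval lies above 1. Among kept cells, cDC1-like cells were 1.99% in F/F and 2.89% in CD4-Cre, and the Xcr1 ratio over all kept cells was 1.33. The part of the cell shares in the ratio among these barcodes was not tested.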

How the results depend on the processing

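No paired analysis was possible because each genotype is 1 pool, and leaving out a replicate was not possible for the same reason. Of 149 ratios recomputed under alternatives, 135 stayed within the reported value's counting interval, 14 moved outside it and 0 reversed. The setting that keeps genes with at least 100 UMIs left every ratio unchanged by construction. A reversal was counted only where the reported interval excluded 1, so ratios near 1 could not be counted as reversed. Of 62 shares of a library's UMIs 16 moved, and of 36 shares of cells 31 moved. The 36 were recomputed only by thinning, with a single draw, or by requiring at least 2 UMIs. Both settings take away UMIs or positive cells, so their moves were largely set by construction and do not measure robustness. All 14 ratios that moved were of Xcl1. Over lymphoid clusters (0.669) the ratio was 0.619 with marker gates in place of clusters, 0.746 without the 5 highest cells and 0.711 as a mean over cells. In CD4 T-like cells (0.241) it was 0.947 with at least 2000 UMIs per cell, 0.352 and 0.795 at Leiden resolutions 0.5 and 2, 0.407 with marker gates, 0.374 without the highest cell, 0.644 without the 5 highest and 0.333 as a mean over cells. The marker gate for CD4 T-like cells required a Cd4 UMI and held 457 F/F and 1081 CD4-Cre cells, against 482 and 756 by clusters. In CD8 T-like cells (0.441) the ratio was 0.596 with at least 2000 UMIs and 0.335 with up to 20% mitochondrial UMIs. It was 0.646 at resolution 0.5 and 0.247 with marker gates. The thresholds for cells, the Leiden resolutions and the marker gates formed the classes anew. The cause was not tested, except that the settings without the highest cells remove those cells by construction. The ratio stayed between 0.965 and 1.05 for Xcr1 and between 0.956 and 1.02 for Flt3 in cDC1-like cells, between 0.603 and 0.637 for Flt3 in immunoglobulin-rich cells, and between 0.949 and 1.001 for Flt3l in lymphoid clusters. Flt3 in immunoglobulin-rich cells has no value without cells of over 10% immunoglobulin UMIs. Leaving out the barcodes found in both libraries was chosen after seeing the data. Depth limits Flt3l, with mostly 1 UMI in a positive cell. Thinned shares given in the Results were averaged over all draws, a choice made after seeing the data. The reason was that single draws differed: for Xcr1 in F/F cDC1-like cells at 1500 UMIs, 1 draw gave 35.3% and another 41.8%.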

Other observations

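Barcodes of 10 to 100 UMIs, the emptiest examined, held Xcl1 at 113 CPM in F/F (154 UMIs) and 111 CPM in CD4-Cre (165 UMIs). Barcodes of 150 to 350 UMIs held 16.0 and 14.8 CPM, close to the 15.7 and 16.9 CPM of all kept cells. The immunoglobulin share was 37.0% and 37.6% in the emptier barcodes and 43.2% and 45.3% in the fuller ones. For Flt3l the ratio in the emptiest barcodes was 1.74 (0.986 to 3.15).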
